A study of Mus musculus with 22 samples.

Results

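Forkhead (Fox) genes encode transcription factors that bind DNA through a winged-helix domain, the forkhead. Some members open closed chromatin (Foxa), some carry signals from the cell surface (Foxh1 for Nodal, Foxo for insulin and growth factors), and many mark 1 germ layer or organ of the embryo. The 44 Fox genes described here are all genes of the deposited tables whose symbol is Fox, a class letter from a to s and a number, out of 19721 genes listed in at least 1 library. The tables are from messenger RNA of J1 cells, a mouse embryonic stem (ES) cell line that forms embryoid bodies, aggregates in which derivatives of the germ layers arise. Embryoid bodies were sampled on days 4, 9, 12, 18 and 28, written D4 to D28, and on each day the groups were bodies with 10 nM tetrabromobisphenol A (TBBPA, a brominated flame retardant; 1 library), with 100 nM TBBPA (1 library) and with the vehicle, 0.1% dimethyl sulfoxide (DMSO; 2 libraries), and beside them there were ES cells without treatment (2 libraries). All 22 libraries come from 1 cell line, and the step from ES cells to D4 also brings in the vehicle. An embryoid body mixes many cell types, so fewer cells of a type and less RNA per cell cannot be told apart in any result below.

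Levels are given as FPKM, the depth- and length-scaled fragment values that the authors deposited, 1 per library, and only these are compared between genes. Differences are log2 changes ± standard error (SE) in depth-scaled counts (CPM) from edgeR's quasi-likelihood test, and a gene is called, or rose or fell, when its adjusted p over all genes tested was under 0.05. The SE is an approximate one, worked back from the F value of the test. It can be too small where a group is near the floor, as Foxi3 was in ES cells (mean 0.183 CPM). The gene lists used below were chosen with earlier results of these data known, so counts over a list are not independent support. Total counts were 18158583 to 18998141 per library. Nothing in the labels tells whether replicate libraries stem from separate cultures; the p-values thus reflect the spread among these samples alone, possibly a technical one. The ES pair stood apart: the mean chi-square per gene between its 2 libraries was 22.5, against 1.63 to 3.38 for the DMSO pairs and 3.26 to 7.95 between the 2 doses on 1 day. The 8 ES cell markers, among them Pou5f1 and Nanog, summed to 2500 and 2340 FPKM in ES cells and to 292 and 285 FPKM in D28 DMSO bodies. Of 12 fibroblast markers, which would also show feeder cells, the sum in ES cells was 51.2 and 71.7 FPKM, of which Ly6a (Sca-1) gave 46.2 and 67.7 FPKM, while Col1a1 was at 1.06 and 0.82 FPKM.

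Of the 44 Fox genes, 31 were listed in every library, 24 reached 10 FPKM in at least 1 library and 6 never reached 1 FPKM. The number of members with a mean of at least 1 FPKM was 16 in ES cells, 19 at D4, 32 at D9, 32 at D12, 30 at D18 and 28 at D28 in the control bodies. Their summed level was 199.6 and 192.3 FPKM in ES cells and 406.6 and 410 FPKM at D28. In ES cells the highest means were those of Foxh1 (29 FPKM), Foxm1 (25), Foxp4 (20.6), Foxk2 (19.7) and Foxo3 (17.4), and at D28 those of Foxp4 (67.8), Foxo4 (47.5), Foxj1 (27), Foxo3 (24) and Foxa2 (23.7). The stage of highest control mean was ES for 3 members, D4 for 6, D9 for 6, D12 for 7, D18 for 9 and D28 for 13. So the family was present throughout, with a change of members between ES cells and D9.

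**Figure D1:**
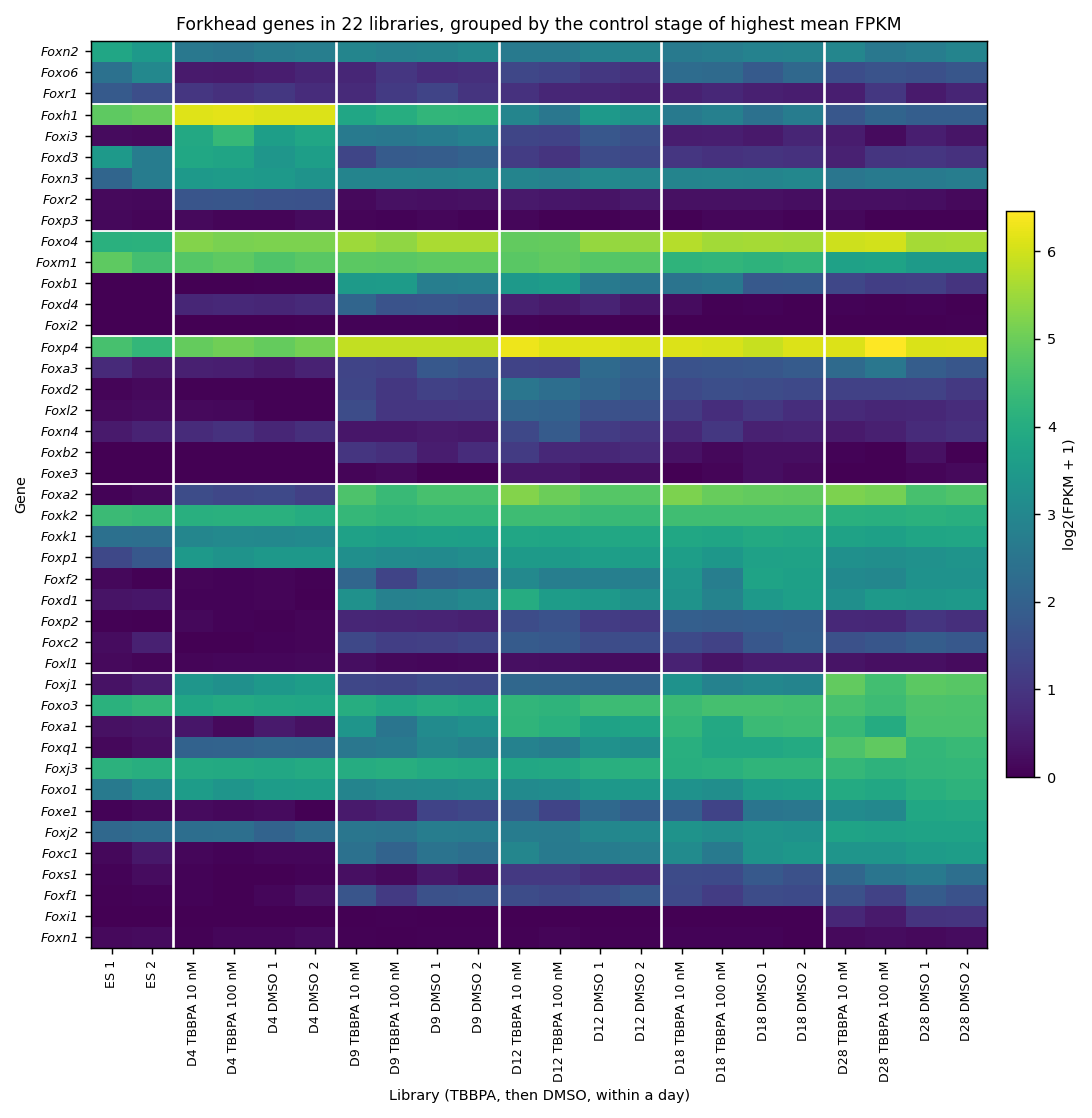
Level of 43 of the Fox genes (rows) in each of the 22 libraries (columns, TBBPA left of DMSO within a day), as log2(FPKM + 1) on the colour scale. White lines part the stages across and, down the page, the control stage at which a member had its highest mean; Foxh1 stands out at D4, Foxp4 and Foxo4 in all embryoid bodies, and Foxj1, Foxq1 and Foxe1 at D28.

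In each fit 40 members could be tested; Foxe3, Foxi2, Foxn1 and Foxp3, known from lens, ear, thymus and regulatory T cells, were too low, with no library above 0.4 FPKM. Over the whole control course all 40 changed, as did 95% of all genes tested. From ES cells to D4, 15 members rose and 12 fell, or 67.5% of those tested, against 62.3% of all genes (31.9% higher and 30.3% lower). From D4 to D9, 22 rose and 9 fell (77.5%, against 60.8% of all genes). From D9 to D12, 14 rose and 7 fell (52.5%, against 33.1%), from D12 to D18, 11 rose and 10 fell (52.5%, against 37.7%), and from D18 to D28, 7 rose and 12 fell (47.5%, against 53%). The share of members called thus lay near that of all genes at the outer steps. The median size of the log2 change was 1.28 for members and 0.55 for all genes at D4, 1.77 and 0.48 at D9, 0.38 and 0.24 at D12, 0.52 and 0.25 at D18, and 0.42 and 0.35 at D28. Some members were near the floor at D4, such as Foxb1 (mean 0.02 FPKM) and Foxd1 (0.035 FPKM). Log2 changes to or from such levels come out large, so these medians are not read as a trait of the family. Neighbouring steps share the libraries of the stage between them. Without the ES pair in the fit, chosen after seeing the data, the members called were 32 at D9, 28 at D12, 25 at D18 and 24 at D28. The share of all genes called in that fit is not given here, so these counts cannot be set against it. Foxd2, Foxh1, Foxj1 and Foxq1 were called at all 5 steps, 11 members at 4 steps, 9 at 3, 12 at 2 and 4 at 1. Steps called were not tallied over all genes, of which 33.1% to 62.3% were called at each step. The tally thus shows nothing particular to the family.

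Foxh1 is the DNA-binding partner of the Smad proteins that carry Nodal signals in the early embryo. It had 28.1 and 29.8 FPKM in ES cells, 67.9 and 68.5 at D4, 18 and 17.8 at D9, 9.98 and 8.65 at D12, 4.29 and 5.5 at D18, and 2.8 and 2.79 at D28. The D4 pair was above, and each later pair below, the pair before it, without overlap. Lack of overlap was not counted over all genes. Foxh1 rose by 1.27 ± 0.10 at D4 (adjusted p = 3.63e-08) and fell by 2.13 ± 0.10 at D9 (adjusted p = 3.14e-10), and it fell again at each later step. Of 14 genes listed for the Nodal pathway, 8 rose and 4 fell at D4, beside 31.9% of all genes higher and 30.3% lower, and 7 rose and 4 fell at D9, beside 31.9% higher and 28.9% lower. Tdgf1, the Nodal co-receptor, fell by 1.06 ± 0.06 at D4 and by 2.28 ± 0.07 at D9, and Nodal itself fell by 2.11 ± 0.21 at D9. From D18 to D28, 7 of the 14 fell and none rose, when 28.1% of all genes fell, beside the fall of Foxh1 by 0.78 ± 0.16.

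Other members of the early embryo had low levels after D12. Foxi3, known from the ectoderm around the neural plate, had 11.2 and 13.1 FPKM at D4, against 0.14 and 0.13 FPKM in ES cells, a rise of 6.40 ± 0.29 (adjusted p = 1.5e-10), and it fell at D9, D12 and D18 to 0.36 and 0.58 FPKM. Foxr2 had 2.14 and 2.08 FPKM at D4, against 0.12 and 0.1 FPKM in ES cells (4.16 ± 0.28), and fell by 3.35 ± 0.24 at D9. Foxd3, a factor of ES cells and of the neural crest, did not differ beyond the spread at D4 (0.38 ± 0.20, adjusted p = 0.125), its ES libraries being at 10 and 5.51 FPKM and its D4 libraries at 9.42 and 11.2, and fell by 1.97 ± 0.23 at D9. Foxd4, a factor of the early neural ectoderm, was listed at 0 in both ES libraries and had 0.63 and 0.7 FPKM at D4, at least 9.67-fold higher against a floor of 3 counts per library. Foxd4 had its highest control level at D9, with 2.24 and 2.06 FPKM, and fell by 2.41 ± 0.33 at D12.

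Other members fell when ES cells became D4 bodies. Foxo6, an insulin-regulated factor best known from the brain, had 0.43 and 0.58 FPKM at D4, against 4.31 and 7.14 FPKM in ES cells, a fall by 3.60 ± 0.30 (adjusted p = 3.02e-07). Foxn2 fell by 1.07 ± 0.11 and Foxr1 by 1.29 ± 0.28. Foxd1, Foxc2, Foxl2, Foxc1 and Foxd2 fell too, from low levels: the highest ES library of any of them, Foxc2 in replicate 2, was at 0.52 FPKM. For 3 of these the call at D4 was lost without ES replicate 2 (adjusted p = 0.687 for Foxc1, 0.0538 for Foxc2 and 0.277 for Foxd2). Foxc1 lost it without D4 replicate 1 (0.114) or 2 (0.0795) as well, and so did Foxd2 (0.128 and 0.129). DESeq2 did not call Foxd2 (0.0956), and limma on log2(FPKM + 1) called none of Foxc1 (0.146), Foxd2 (0.405) and Foxl2 (0.077). Of the 8 neuron markers, 4 rose and 2 fell at this step; the 2 that fell, Stmn2 (-3.28 ± 0.11) and Tubb3 (-2.80 ± 0.19), carried the sum, which was 15 and 15.8 FPKM in D4 bodies and 104 and 78.9 FPKM in ES cells. Their part in these falls was not tested.

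**Figure D2:**
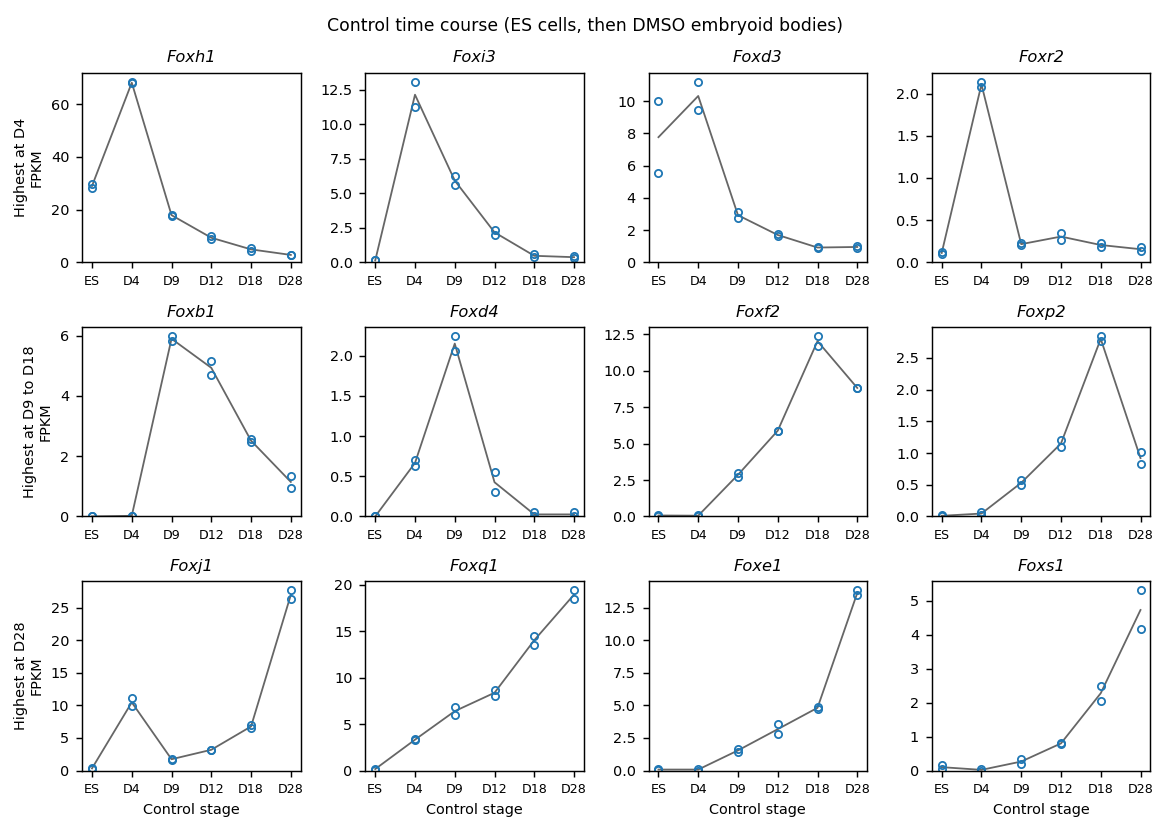
FPKM of 12 Fox genes (panels) in ES cells and in DMSO embryoid bodies at each day; circles are libraries, 2 at each stage, and lines join the means. The rows hold genes highest at D4, between D9 and D18, and at D28: Foxh1 and Foxi3 stand at their top at D4, Foxb1 appears between D4 and D9, and Foxj1 has 1 high point at D4 and a higher one at D28.

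Foxa1, Foxa2 and Foxa3 are pioneer factors of endoderm, liver and gut, and Foxa2 also marks the floor plate of the neural tube. Foxa2 had 0.05 and 0.1 FPKM in ES cells, 1.69 and 1.33 at D4, 22.8 and 22.8 at D9, 26.2 and 25.7 at D12, 29 and 28.4 at D18, and 22.9 and 24.5 at D28. It rose by 4.20 ± 0.31 at D4 and by 3.78 ± 0.11 at D9 (adjusted p = 2.82e-12). Foxa1 appeared later: it had 0.37 and 0.22 FPKM at D4, against 0.22 and 0.27 FPKM in ES cells, and then 7.68 and 8.61 FPKM at D9, a rise of 4.64 ± 0.16 (adjusted p = 1.1e-11). Foxa1 rose further at D12 and D18, to 20.3 and 21 FPKM. Foxa3, the liver-enriched member, stayed lower, with 2.4 and 2.08 FPKM at D9 (2.21 ± 0.27) and no control library above 3.68. Of 19 tested genes listed for endoderm and floor plate, 16 rose and 1 fell at D9, beside 31.9% of all genes higher. Among them Shh, the floor plate signal, rose by 9.75 ± 0.33, Nkx6-1, a ventral neural factor, by 8.51 ± 0.24, Afp, the fetal plasma protein, by 6.21 ± 0.15, and Ttr, the thyroxine carrier, by 4.46 ± 0.11.

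Foxc1, Foxc2, Foxf1 and Foxf2 are factors of paraxial, lateral and gut mesoderm. Foxc1 had 0.11 and 0.34 FPKM in ES cells, 0.08 and 0.09 at D4, 4.48 and 4.08 at D9, 5.52 and 5.76 at D12, 8.98 and 9.76 at D18, and 10.8 and 11.1 at D28. It rose by 5.45 ± 0.28 at D9 (adjusted p = 1.09e-09). Foxf2 had 2.72 and 3 FPKM at D9, against 0.07 and 0.03 FPKM at D4, and rose again at D12 (0.98 ± 0.14) and D18 (0.99 ± 0.13), to 12.4 and 11.7 FPKM. Foxf1 (3.59 ± 0.31) and Foxc2 (4.66 ± 0.49) rose at D9 as well and stayed between 1.32 and 2.88 FPKM in all later control libraries. Foxl1, known from the mesenchyme of the gut, reached only 0.41 and 0.41 FPKM, at D18. Of 20 listed mesoderm genes, 16 rose and 1 fell at D9, among them Hand1 (7.03 ± 0.20), a factor of lateral mesoderm and heart, and Pdgfra (3.17 ± 0.09), a growth factor receptor of mesenchyme.

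On mouse chromosome 13 Foxq1, Foxf2 and Foxc1 lie side by side in the RefSeq gene order, and on chromosome 8 Foxc2 and Foxl1 are adjacent while Mthfsd lies between Foxf1 and Foxc2. The calls of neighbouring members differed at some steps, though differences between genes were not tested. On chromosome 13 Foxq1 rose at D4 (4.32 ± 0.21, adjusted p = 4.08e-10), when Foxf2 was at -0.58 ± 0.76 (adjusted p = 0.584) and Foxc1 fell. Foxf2 and Foxc1 were near the floor at D4, with means of 0.05 and 0.085 FPKM. The D4 call of Foxc1 was among those lost when a library was left out. At D9 Foxf2 and Foxc1 rose while Foxq1 rose by 0.80 ± 0.11, and at D28 Foxf2 fell by 0.48 ± 0.12 (adjusted p = 0.0529 without D18 replicate 1) while Foxq1 rose by 0.41 ± 0.09. On chromosome 8 Foxf1 and Foxc2 rose at D9, when Foxl1 was at -0.30 ± 0.55 (adjusted p = 0.697) and Mthfsd at 0.28 ± 0.14 (adjusted p = 0.0947). Foxl1 was near the floor too, with control means of 0.1 FPKM at D4 and 0.09 FPKM at D9.

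Promoter sequence was available for 28 of the 44 members, as the 250 bases before the start of the gene in the RefSeq table for GRCm38.p6, and it is printed for 4 members that rose at D9, a pair from the Foxa class and the neighbours Foxf2 and Foxc1. Capitals mark 4 motifs searched on both strands: the forkhead core with the letters TGTTTAC, the CCAAT box, the GC box with the letters GGGCGG, and the TATA box with the letters TATAAA. A match on the minus strand shows as the reverse complement, and overlap between motifs was allowed. Foxa1 is at chr12:57546112-57546361 (minus strand), Foxa2 at chr2:148046970-148047219 (minus), Foxc1 at chr13:31806396-31806645 (plus) and Foxf2 at chr13:31625566-31625815 (plus).
Foxa1: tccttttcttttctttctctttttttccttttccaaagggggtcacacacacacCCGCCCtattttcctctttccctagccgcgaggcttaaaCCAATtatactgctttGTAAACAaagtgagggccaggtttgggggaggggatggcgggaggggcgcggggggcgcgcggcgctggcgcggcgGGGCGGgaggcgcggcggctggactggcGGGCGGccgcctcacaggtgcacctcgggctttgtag
Foxa2: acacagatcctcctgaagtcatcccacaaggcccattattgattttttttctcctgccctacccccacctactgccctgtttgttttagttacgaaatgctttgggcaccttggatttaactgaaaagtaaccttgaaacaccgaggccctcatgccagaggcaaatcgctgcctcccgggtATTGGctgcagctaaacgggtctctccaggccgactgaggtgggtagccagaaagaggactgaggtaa
Foxc1: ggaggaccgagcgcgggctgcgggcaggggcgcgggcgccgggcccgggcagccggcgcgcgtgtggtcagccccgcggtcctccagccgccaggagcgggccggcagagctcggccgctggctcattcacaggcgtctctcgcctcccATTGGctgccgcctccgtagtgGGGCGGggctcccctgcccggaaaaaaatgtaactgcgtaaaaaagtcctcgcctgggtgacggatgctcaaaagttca
Foxf2: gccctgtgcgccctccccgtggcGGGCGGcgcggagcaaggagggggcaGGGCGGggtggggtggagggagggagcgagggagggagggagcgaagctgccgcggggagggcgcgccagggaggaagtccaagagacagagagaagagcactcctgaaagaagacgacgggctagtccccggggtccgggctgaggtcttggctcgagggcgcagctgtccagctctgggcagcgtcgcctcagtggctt
Of the 28 promoters only that of Foxa1 held the forkhead core, or 3.57%, beside 3.09% of all 27025 promoters in the table. A CCAAT box was present in 13 of the 28 (46.4%, beside 34.5% of all), a GC box in 20 (71.4%, beside 32.9%) and TATAAA in 2 (7.14%, beside 13%). The Foxa1 window had 62% G and C and that of Foxf2 71.6%. These are matches of letters in a window and not measured sites.

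Of the members known from the nervous system, Foxb1, Foxd1, Foxp2 and Foxb2 were at most at 0.07 FPKM in the control libraries of D4 and higher at D9, while Foxn4 was lower at D9 than at D4. Foxb1, known from the caudal hypothalamus, midbrain and spinal cord, was listed at 0 in both ES libraries and had 0.02 and 0.02 FPKM at D4, 5.82 and 5.98 at D9, 5.17 and 4.7 at D12, 2.47 and 2.56 at D18, and 1.34 and 0.95 at D28. It rose at D9 (adjusted p = 1.72e-10) and fell at D18 (-1.01 ± 0.14) and D28 (-1.16 ± 0.17). Foxd1, a factor of retina, diencephalon and kidney stroma, had 6.43 and 7.15 FPKM at D9, against 0.07 and 0 FPKM at D4 (adjusted p = 2.84e-10), and stayed at 8.37 to 11.4 FPKM from D12 on. Foxp2, a factor of cortical and striatal neurons, had its highest control level at D18, with 2.84 and 2.76 FPKM, and fell by 1.62 ± 0.19 at D28 (adjusted p = 6.67e-06). Foxn4, of retinal progenitors and spinal interneurons, had 0.37 and 0.34 FPKM at D9, against 0.61 and 0.83 FPKM at D4, a fall by 1.18 ± 0.28. It rose by 1.58 ± 0.26 at D12 and fell by 1.12 ± 0.24 at D18. Foxb2 was listed at 0 in ES cells and at D4 and was at least 5.57-fold higher at D9, at 0.42 and 0.78 FPKM.

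Of 20 genes listed for forebrain and neural crest, 17 rose and 1 fell at D9, and 1 rose and 17 fell at D28, when 28.1% of all genes fell. Dlx1, of forebrain interneurons, fell by 3.48 ± 0.20 at D28 and Lhx2, of cortex and eye, by 1.96 ± 0.16. All 8 neuron markers fell from D18 to D28 as well, with sums of 52.4 and 47.4 FPKM at D28 and 277 and 291 FPKM at D18. Their part in the falls of Foxp2 and Foxb1 at D28 was not tested. Reads of Foxb1 and its antisense neighbour B230323A14Rik cannot be told apart, since strand is not stated.

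Foxj1 is the master factor of motile cilia. It had 0.25 and 0.41 FPKM in ES cells, 9.86 and 11.1 at D4, 1.78 and 1.69 at D9, 3.21 and 3.16 at D12, 6.98 and 6.55 at D18, and 27.7 and 26.3 at D28. Foxj1 thus had a high level at D4 and a higher one at D28, with no overlap between neighbouring pairs, which was not counted over all genes. It rose by 4.96 ± 0.16 at D4 (adjusted p = 5.28e-12), fell by 2.74 ± 0.12 at D9, and rose at D12 (0.82 ± 0.14), D18 (1.04 ± 0.11) and D28 (1.97 ± 0.10, adjusted p = 1.97e-09). Of 22 tested motile cilia genes, 21 rose and 0 fell at D28, beside 24.9% of all genes higher, with Cfap52 at 4.29 ± 0.28, the radial spoke protein Rsph4a at 3.61 ± 0.22, Cfap126 at 3.18 ± 0.16 and Tppp3 at 1.74 ± 0.11. At D4, when Foxj1 rose more, 11 of the 22 rose and 2 fell: Rsph4a rose by 2.68 ± 0.29 and Ccdc40, an axonemal ruler protein, by 2.01 ± 0.15, while the tektin Tekt1 fell by 3.74 ± 0.25 and Hydin, of the central apparatus, by 1.37 ± 0.18. The summed level of the 23 cilia genes in the tables was 21.1 and 21.7 FPKM in ES cells, 26.9 and 24.5 at D4, 50.4 and 46.8 at D18, and 202 and 195 at D28. Of 8 regulators of multiciliation, 4 rose and 1 fell at D28, among them Ccno (2.43 ± 0.22) and Mcidas (2.13 ± 0.41).

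Foxm1 drives genes of the G2 phase and mitosis in dividing cells. It stayed between 22 and 28.2 FPKM in all control libraries up to D12 and then had 17 and 17.9 FPKM at D18 and 10.4 and 10.4 at D28, falls by 0.60 ± 0.09 (adjusted p = 0.000107) and 0.77 ± 0.09 (adjusted p = 9.03e-06). Of its 16 listed genes, 15 fell at D18, beside 17.1% of all genes, and 16 at D28, beside 28.1%, and none rose. At D28 Cenpf fell by 1.27 ± 0.06, Top2a by 1.22 ± 0.07, Ccnb1 by 0.98 ± 0.05 and Kif20a by 0.96 ± 0.06. Before that, at D9, 10 of the 16 had already fallen and 2 had risen while Foxm1 was at -0.03 ± 0.09. Of all genes, 28.9% fell and 31.9% rose at that step. Foxm1 overlaps Tex52 on the same strand, so reads there could be counted for either gene.

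**Figure D3:**
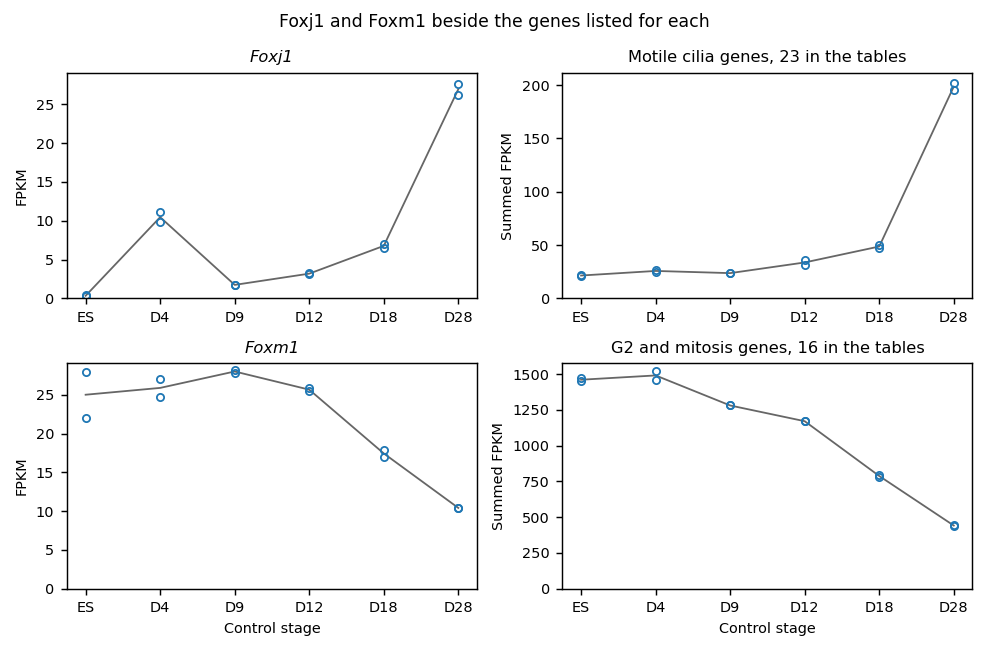
FPKM of Foxj1 and Foxm1 (left panels) beside the summed FPKM of 23 motile cilia genes and 16 G2 and mitosis genes (right panels) over the control stages; circles are libraries and lines join the means of 2. Foxj1 is high at D4 and D28 while the cilia genes reach 195 and 202 FPKM at D28 and at most 26.9 at D4; Foxm1 and the mitosis genes both fall after D12.

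The Foxo factors are held out of the nucleus by Akt when insulin or growth factors act. Foxo4 was the most abundant of them in all control embryoid bodies, though not in ES cells, where Foxo3 averaged 17.4 FPKM and Foxo4 16.3 FPKM. Foxo4 had 16 and 16.5 FPKM in ES cells, 35.3 and 35.5 at D4 and 42 to 48.9 in all later control libraries; it rose by 1.09 ± 0.05 at D4 (adjusted p = 4.09e-10) and by 0.32 ± 0.05 at D9. Foxo1 rose at D4 (0.77 ± 0.12), fell at D9 (-0.65 ± 0.12) and rose at D28 (0.54 ± 0.11) to 15.9 and 16.9 FPKM. Foxo3 kept to 13.1 to 24.1 FPKM, with a fall by 0.41 ± 0.07 at D4 and a rise of 0.43 ± 0.07 at D12. Foxo6 rose by 1.61 ± 0.29 at D18, to 2.56 and 3.56 FPKM. Of 20 listed Foxo target genes, 8 rose and none fell at D12, beside 17.5% of all genes higher, with Irs2, the insulin receptor substrate, at 0.44 ± 0.07, Fbxo32, a ubiquitin ligase of muscle wasting, at 0.52 ± 0.12, Sesn3 at 0.40 ± 0.09 and Trim63 at 0.66 ± 0.20.

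The members of the Foxp, Foxk, Foxj and Foxn classes in this paragraph were listed in every library. Foxp4 was the most abundant Fox gene from D9 on, at 57 to 69.3 FPKM in control libraries; it had 29.3 and 33.5 FPKM at D4, against 22.7 and 18.5 FPKM in ES cells, and rose by 0.57 ± 0.10 at D4 and 0.72 ± 0.09 at D9. Foxp1 had 9.85 and 9.78 FPKM at D4, against 1.62 and 2.45 FPKM in ES cells (1.85 ± 0.07, adjusted p = 4.9e-11), and lay between 7.54 and 12.2 afterwards. Foxp1 overlaps Gm20696 on the same strand, so reads there could be counted for either gene, and its expected counts were fractional in 22 libraries. Foxk1, with Foxk2 a regulator of glycolysis and autophagy, rose by 0.75 ± 0.06 at D4 and 0.53 ± 0.06 at D9 and then kept to 11.6 to 14 FPKM, and Foxk2 kept to 15 to 21.3 FPKM over the whole course. Foxj3 kept to 13.7 to 18.5 FPKM and Foxn2 to 5.44 to 7.03 FPKM from D4 on. Foxn3, a repressor, had its highest level at D4, at 10.1 and 9.04 FPKM, against 3.28 and 5.49 FPKM in ES cells (1.33 ± 0.08). Foxj2 had 3.57 and 3.84 FPKM in ES cells, 3.15 and 3.91 at D4, 5.69 and 5.58 at D9, 6.91 and 7.37 at D12, 9.18 and 8.87 at D18, and 12.4 and 12.3 at D28. It rose at D9 (0.53 ± 0.10), D12, D18 and D28 (0.43 ± 0.08). The D12 call was lost without any 1 of its 4 libraries (adjusted p of 0.0608 to 0.171). The D18 call was lost without D12 replicate 1 (0.126) or D18 replicate 1 (0.0973) or 2 (0.0526).

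A last group of members had its highest control level at D28. Foxe1, the thyroid and palate factor, had 1.45 and 1.64 FPKM at D9, 3.58 and 2.77 at D12, 4.72 and 4.91 at D18, and 13.4 and 13.8 at D28, and rose by 1.47 ± 0.18 at D28 (adjusted p = 1.37e-05). Foxq1, known from hair and gut epithelium, had 3.37 and 3.27 FPKM at D4 and 18.5 and 19.4 at D28, and rose at every step. Its rise at D12 (0.33 ± 0.10) was lost without D9 replicate 2 (adjusted p = 0.211) or D12 replicate 1 (0.167) or 2 (0.0528). Foxs1, of pericytes and peripheral sensory neurons, had 5.31 and 4.16 FPKM at D28, against 2.5 and 2.06 FPKM at D18, a rise of 1.02 ± 0.23. Foxi1, the factor of ionocytes, was listed at 0 in every control library before D28, where it had 0.96 and 0.98 FPKM, at least 14.2-fold higher. Fibroblast markers stood at 3260 and 3340 FPKM at D28 and 1240 and 1310 FPKM at D18, summed over 12 genes, and 6 of 8 epithelial markers rose from D18 to D28; their part in these rises was not tested. Foxl2, the ovary factor, had its highest level at D12 (2.04 and 1.96 FPKM). Foxd2, of kidney and limb mesenchyme, had its highest level there too (3.28 and 2.66 FPKM). Foxe1, Foxl2, Foxo1, Foxj2 and Foxq1 overlap a gene on the opposite strand, and their reads cannot be told apart from it.

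With TBBPA, 16 members were called on at least 1 day: 8 on 1 day, 6 on 2 days, and Foxb1 and Foxe1 on 3. Days called were not tallied over all genes, so these counts show nothing particular to the family. Shares of all genes are given by day below. On each day both TBBPA libraries, 10 nM and 100 nM, formed 1 group of 2 that was set against the 2 DMSO libraries. At D4, edgeR called 0 of the 40 members, beside 0.458% of all genes (0.0855% higher and 0.372% lower), 5 members had an unadjusted p under 0.05, as had 10.3% of all genes, and DESeq2 and limma also called 0. At D9, 1 was higher and 1 lower (5%, beside 2.34% of all genes, 1.37% higher and 0.964% lower). At D12, 6 were higher and 8 lower (35%, beside 21.1% of all genes, 11.9% higher and 9.19% lower). At D18, 1 was higher and 4 lower (12.5%, beside 10.5%, 5.96% higher and 4.56% lower), and at D28, 4 were higher and 1 lower (12.5%, beside 7.09%, 3.65% higher and 3.44% lower). The median size of the log2 change at D12 was 0.44 for members and 0.20 for all genes, and at D4 it was 0.12 and 0.11. When the 2 DMSO libraries of a day were added up and used as a single one, the counts were 0 at D9, 3 at D12, 1 at D18 and 0 at D28. The calls at D12 that this left were those of Foxb1, Foxo4 and Foxa3, and the 1 at D18 was that of Foxb1. Without the ES pair in the fit the counts of called members were 0 at D4, 2 at D9, 17 at D12, 6 at D18 and 7 at D28. The share of all genes is not given for this fit, for the summed pairs or for libraries left out. Leaving out 1 of the 4 libraries of a day left 1 called member at D9, 6 to 8 at D12, 1 to 7 at D18 and 2 to 6 at D28.

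Foxb1 was higher with TBBPA on 3 days. At D9 it had 10.6 and 10.7 FPKM with 10 nM and 100 nM TBBPA, against 5.82 and 5.98 FPKM with DMSO. At D12 it had 10.3 and 10.9 FPKM with TBBPA, against 5.17 and 4.7 FPKM with DMSO, and at D18 4.62 and 4.98 FPKM with TBBPA, against 2.47 and 2.56 FPKM with DMSO. The groups did not overlap on any of these days, and both doses lay close together. Lack of overlap was not counted over all genes, so here and for the members below it adds nothing to the calls. Foxb1 was higher by 0.85 ± 0.12 at D9 (adjusted p = 0.000421), 1.13 ± 0.12 at D12 (2.22e-06) and 0.95 ± 0.14 at D18 (0.000105), and by 0.88 ± 0.09 over the 5 days (2.31e-06). The D9 call was lost with the DMSO pair summed (adjusted p = 0.151). At D28 it had 1.6 and 1.28 FPKM with TBBPA, against 1.34 and 0.95 FPKM with DMSO, and was not called. Neuron markers were higher beside Foxb1: 3 of 8 at D9, 8 of 8 at D12 and 8 of 8 at D18, with sums of 265 and 282 FPKM with TBBPA against 136 and 142 FPKM with DMSO at D12, and 474 and 439 FPKM with TBBPA against 277 and 291 FPKM with DMSO at D18. Of all genes, 1.37% were higher at D9, 11.9% at D12 and 5.96% at D18, and 4.56% were lower at D18. Of the 20 forebrain and neural crest genes, 8 were higher and 1 lower at D18, among them Lhx2 (1.02 ± 0.15) and Tfap2b (0.78 ± 0.17). The part of these markers in the level of Foxb1 was not tested.

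**Figure D4:**
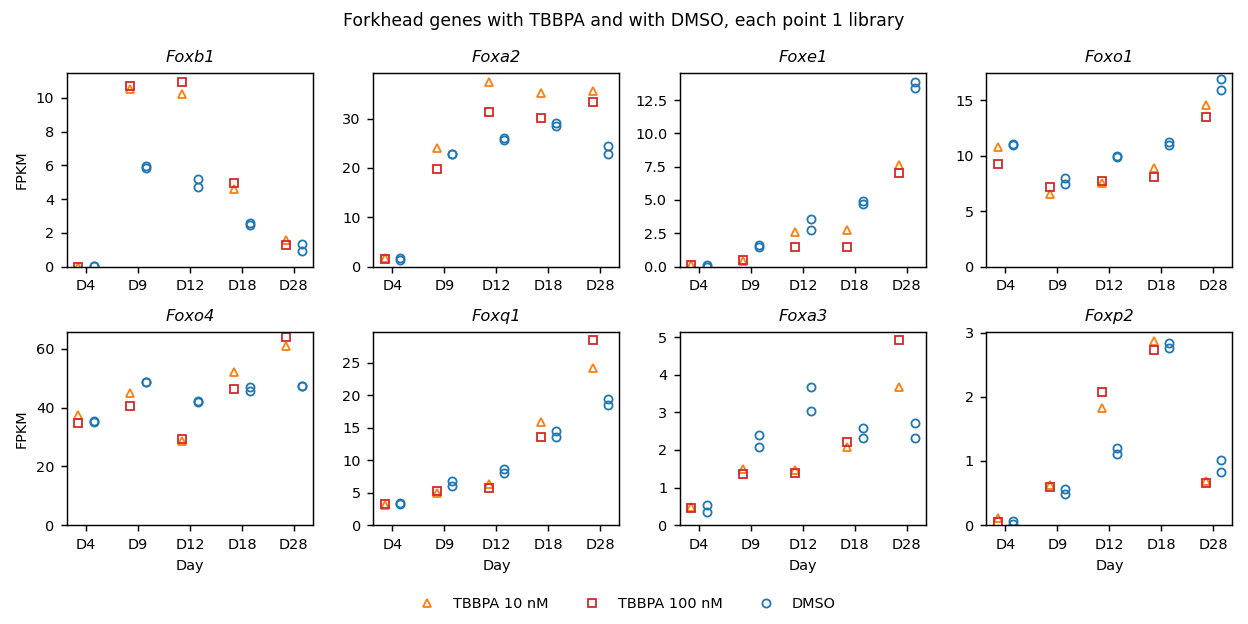
FPKM of 8 Fox genes (panels) at each day with 10 nM TBBPA (triangles), 100 nM TBBPA (squares) and DMSO (circles); each symbol is 1 library. Foxb1 lies above DMSO at D9, D12 and D18, Foxe1 below DMSO from D9 on, and Foxo4, Foxq1 and Foxa3 below DMSO at D12 and above it at D28.

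Foxe1 was lower with TBBPA. It had 0.39 and 0.49 FPKM with TBBPA at D9, against 1.45 and 1.64 FPKM with DMSO, 2.78 and 1.47 FPKM with TBBPA at D18, against 4.72 and 4.91 FPKM with DMSO, and 7.61 and 7.03 FPKM with TBBPA at D28, against 13.4 and 13.8 FPKM with DMSO. The groups did not overlap on these days, nor at D12 (2.61 and 1.51 FPKM with TBBPA, against 3.58 and 2.77 FPKM with DMSO), where Foxe1 was not called. The log2 changes were -1.80 ± 0.42 at D9 (adjusted p = 0.0223), -1.15 ± 0.27 at D18 (0.00707) and -0.87 ± 0.22 at D28 (0.0196), and -0.97 ± 0.15 over the days (0.000157). The D9 call was lost without any 1 of its 4 libraries (adjusted p of 0.109 to 0.187). The D18 call was lost without DMSO replicate 2 (0.0616) or the 100 nM library (0.149). At D28 it was lost without DMSO replicate 1 (0.117) or 2 (0.16) or the 100 nM library (0.157), and with DESeq2 (0.0504). The call over the days stayed under each library and each day left out.

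Foxo4, Foxq1 and Foxa3 were lower with TBBPA at D12 and higher at D28. Foxo4 had 28.8 and 29.3 FPKM with TBBPA at D12, against 42.2 and 42 FPKM with DMSO, and 61 and 64.1 FPKM with TBBPA at D28, against 47.4 and 47.6 FPKM with DMSO. The groups were apart on both days, in opposite directions. The changes were -0.51 ± 0.07 at D12 (adjusted p = 9.65e-06) and 0.43 ± 0.06 at D28 (0.000361), and the effect differed between the 5 days (adjusted p = 1.72e-05); without 1 library of the day, the adjusted p stayed at or under 0.0132. With the DMSO pairs summed the D28 call (0.154) and the difference between days (0.083) were lost. Foxq1 had 6.31 and 5.67 FPKM with TBBPA at D12, against 8.7 and 8.04 FPKM with DMSO (-0.46 ± 0.11, adjusted p = 0.00612), and 24.1 and 28.5 FPKM with TBBPA at D28, against 18.5 and 19.4 FPKM with DMSO (0.50 ± 0.10, 0.00318). Its D12 call was lost without DMSO replicate 1 (0.0713) or the 100 nM library (0.0929), and its D28 call likewise (0.0666 and 0.0917). Foxa3 had 1.46 and 1.39 FPKM with TBBPA at D12, against 3.68 and 3.04 FPKM with DMSO (-1.21 ± 0.21, adjusted p = 0.000266), and 3.67 and 4.92 FPKM with TBBPA at D28, against 2.73 and 2.32 FPKM with DMSO (0.80 ± 0.19, 0.0143). The D28 call of Foxa3 was lost without DMSO replicate 1 (0.0699) or 2 (0.186) or the 100 nM library (0.237). Visceral endoderm markers summed to 433 and 376 FPKM with TBBPA at D12, against 765 and 772 FPKM with DMSO, 6 of 8 being lower (9.19% of all genes). At D28 they summed to 235 and 256 FPKM with TBBPA, against 192 and 195 FPKM with DMSO, where 1 of 8 was higher (3.65% of all genes). The part of these markers in the level of Foxa3 was not tested.

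Foxa2 was higher where Foxa3 was lower at D12, with 37.4 and 31.3 FPKM with TBBPA, against 26.2 and 25.7 FPKM with DMSO (0.43 ± 0.10, adjusted p = 0.0035; 0.102 without the 10 nM library). At D28 it had 35.6 and 33.3 FPKM with TBBPA, against 22.9 and 24.5 FPKM with DMSO (0.57 ± 0.10, adjusted p = 0.00158), and this call held without each library in turn, with adjusted p up to 0.0455. Foxa2 was higher by 0.28 ± 0.06 over the days (0.00291). Of the 19 endoderm and floor plate genes, 7 were higher and 5 lower with TBBPA at D12, beside 11.9% of all genes higher and 9.19% lower. The ventral neural genes Spon1 (0.99 ± 0.12) and Nkx6-1 (0.76 ± 0.12) were among those higher, and Hnf4a, the liver and yolk sac factor, was lower (-0.87 ± 0.14).

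At D12 further members of the nervous system and of the early embryo differed. Foxp2 had 1.82 and 2.08 FPKM with TBBPA, against 1.2 and 1.1 FPKM with DMSO (0.79 ± 0.18, adjusted p = 0.00305), and Foxn4 had 1.62 and 2.6 FPKM with TBBPA, against 1.23 and 1.04 FPKM with DMSO (0.94 ± 0.25, 0.0104). All 8 neuron markers were higher at D12 too, with the sums given for Foxb1, and their part in the levels of Foxp2 and Foxn4 was not tested. Foxh1 had 6.6 and 4.94 FPKM with TBBPA, against 9.98 and 8.65 FPKM with DMSO (-0.57 ± 0.14, 0.00512). Of the 8 ES cell markers, 6 were lower and 1 higher at that day, and their part was not tested. Of the 14 Nodal pathway genes, 1 was lower and 0 were higher at D12, when 9.19% of all genes were lower. Foxj2 was lower by 0.35 ± 0.09 and Foxj3 by 0.20 ± 0.06, while Foxd2 was higher by 0.59 ± 0.17 and Foxl2 by 0.69 ± 0.22. In all 7 of these genes, picked because they were called, the TBBPA and DMSO libraries did not overlap at D12. How many of all genes were likewise without overlap was not counted, so this adds nothing to the calls. Each call rested on some library: without D12 DMSO replicate 2 the adjusted p was 0.0515 for Foxp2, 0.118 for Foxn4, 0.0821 for Foxj2, 0.199 for Foxj3, 0.206 for Foxd2 and 0.152 for Foxl2, and without DMSO replicate 1 it was 0.0679 for Foxh1. Without the 100 nM library it was 0.052 for Foxp2, 0.245 for Foxn4, 0.107 for Foxh1, 0.0587 for Foxj2, 0.0743 for Foxj3 and 0.0842 for Foxl2. Without the 10 nM library it was 0.152 for Foxj3, 0.178 for Foxd2 and 0.141 for Foxl2, and without DMSO replicate 1 it was 0.0548 for Foxj3 and 0.114 for Foxl2. DESeq2 did not call Foxd2 (0.0922) or Foxl2 (0.134).

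Foxo1 was lower with TBBPA at D12 and D18. Foxo1 had 7.5 and 7.75 FPKM with TBBPA at D12, against 9.95 and 9.92 FPKM with DMSO (-0.36 ± 0.11, adjusted p = 0.025), and 8.86 and 8.05 FPKM with TBBPA at D18, against 10.9 and 11.2 FPKM with DMSO (-0.37 ± 0.11, 0.0315). The D12 call was lost without any 1 library (0.101 to 0.129) and the D18 call without DMSO replicate 1 (0.131) or 2 (0.175) or the 100 nM library (0.247), but over the days Foxo1 was lower by 0.24 ± 0.04 (0.000194), a call kept under each library and day left out. Of the 20 Foxo target genes, 5 were lower and none higher at D12, among them Cited2 (-0.39 ± 0.09), Sesn3 (-0.42 ± 0.10), Fbxo32 (-0.39 ± 0.12) and Irs2 (-0.25 ± 0.07), beside 9.19% of all genes lower. Of 10 genes listed upstream of Foxo, kinases and a phosphatase among them, 1 was lower, Sgk3 (-0.66 ± 0.11), and 3 were higher, among them Akt1 (0.21 ± 0.07). At D12 11.9% of all genes were higher.

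At D12 Foxc2 was higher in both TBBPA libraries, at 1.47 (10 nM) and 1.33 (100 nM) times the DMSO mean in CPM. It was not called there. Among the mesodermal members only Foxc2 was called with TBBPA at D18. It had 1.73 and 1.4 FPKM with TBBPA at D18, against 2.35 and 2.88 FPKM with DMSO (-0.72 ± 0.23, adjusted p = 0.0493), a call lost without any 1 library (0.0653 to 0.335), with DESeq2 (0.0763) and with no filter on low counts (0.0525). Foxc1 had 7.68 and 5.25 FPKM with TBBPA at D18, against 8.98 and 9.76 FPKM with DMSO, and Foxf2 had 9.46 and 5.79 FPKM with TBBPA, against 12.4 and 11.7 FPKM with DMSO; the 100 nM library was the lower in each, and neither was called on that day (adjusted p = 0.0747 and 0.0933). Of the 20 mesoderm genes, 6 were lower and none higher at D18, beside 4.56% of all genes lower, among them Prrx1 (-0.70 ± 0.10), a factor of limb and craniofacial mesenchyme, and Tbx1 (-1.19 ± 0.22). Fibroblast markers summed to 862 and 595 FPKM with TBBPA at D18, against 1240 and 1310 FPKM with DMSO, and 8 of 12 were lower; their part in the levels of Foxc1, Foxc2 and Foxf2 was not tested.

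Over the 5 days, 3 members were higher and 6 lower with TBBPA (22.5%, beside 22% of all genes), a share near that of all genes. The higher ones were Foxb1, Foxa2 and Foxl2 (0.38 ± 0.14), and the lower ones included Foxe1, Foxo1, Foxf1 (-0.40 ± 0.13), Foxc1 (-0.21 ± 0.07) and Foxn2 (-0.15 ± 0.05). These fits share libraries with the tests by day. Leaving out each of the 20 libraries gave 5 to 10 called members, and without day 18 there were 4. Foxl2 and Foxc1, with adjusted p of 0.0489 and 0.0455, were lost in most of those fits, up to 0.178 for Foxl2 without the D12 100 nM library and 0.129 for Foxc1 without the D18 100 nM library. Foxf1 was lost without day 18 (0.0873) and Foxn2 without day 12 (0.148).

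**Figure D5:**
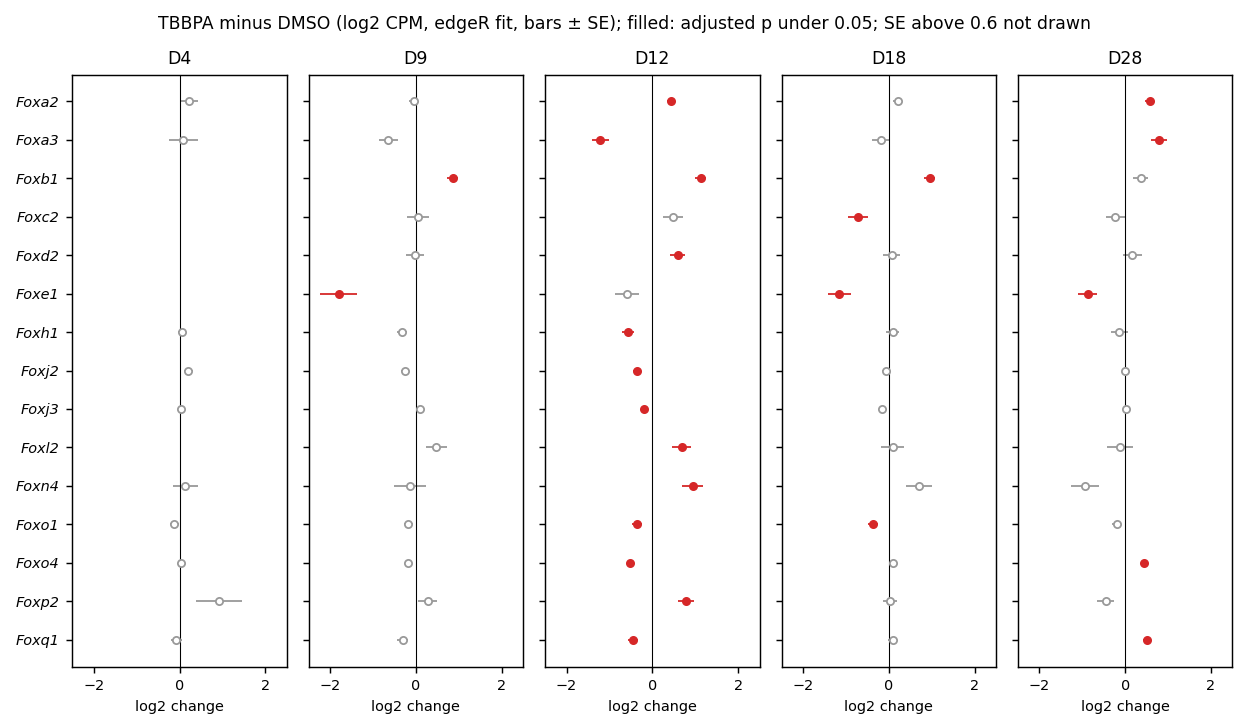
Log2 change of TBBPA against DMSO (horizontal axis, on the CPM scale of edgeR's fit) for 15 of the Fox genes called on at least 1 day, with a panel for each day; bars are ± SE, filled points have an adjusted p under 0.05, and points with an SE above 0.6 are not drawn. At D4 no point is filled and at D12 there are 13; Foxo4, Foxq1 and Foxa3 lie left of 0 at D12 and right of it at D28.

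Members that were not called with TBBPA on any day include the most abundant one and the cilia factor. Foxp4 had 68.8 and 86.7 FPKM with TBBPA at D28, against 67.1 and 68.4 FPKM with DMSO (0.23 ± 0.10, adjusted p = 0.21), the 100 nM library being the higher. Foxj1 had 29.2 and 21.5 FPKM with TBBPA at D28, against 27.7 and 26.3 FPKM with DMSO (-0.06 ± 0.13, adjusted p = 0.842), and 1 of the 22 cilia genes was lower. Foxm1 had 11.9 and 12.4 FPKM with TBBPA at D28, against 10.4 and 10.4 FPKM with DMSO, groups that did not overlap, but it was not called (0.25 ± 0.09, adjusted p = 0.0766). Of its 16 mitosis genes, 11 were higher and none lower with TBBPA at D28, beside 3.65% of all genes higher, with Birc5 at 0.48 ± 0.08, Plk1 at 0.38 ± 0.07, Aurka at 0.35 ± 0.07 and Ccnb1 at 0.29 ± 0.06.

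Between the doses, edgeR called 0 of the 40 members and 0 of all genes over the days (100 nM minus 10 nM, beside 0% of all genes), 9 members had an unadjusted p under 0.05, beside 6.38% of all genes, and DESeq2 and limma called 0 members. The 3 of smallest p were Foxj1 (-0.29 ± 0.08, unadjusted p = 0.00176), Foxf2 (-0.51 ± 0.15, 0.00243) and Foxc1 (-0.33 ± 0.11, 0.00475), with adjusted p of 0.43, 0.475 and 0.54. Foxa1 is an example of the spread between doses: it had 18.4 FPKM with 10 nM and 13.8 FPKM with 100 nM TBBPA at D18, and 19.5 and 14.7 FPKM at D28, against 20.3 and 21 FPKM with DMSO at D18 and 23.3 and 23.3 FPKM at D28. Each dose is 1 library on a day, so such a gap on a single day has no replicate.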

How the data were processed

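Messenger RNA of ES cells and embryoid bodies was sequenced in 22 libraries. The authors deposited 1 table per library, with expected counts per gene and FPKM values, scaled for depth and gene length. The counting tool is not given in these sources. HISAT, Bowtie2 and the build GRCm38.p5 are named in the submitters' processing notes, and strand is not stated. Rounding made the expected counts whole, and a gene not listed in a table was taken as 0. Totals were 18158583 to 18998141 counts per library, and intervals or floors (3 counts per library) cover counting error only.

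Groups and days follow the labels. edgeR 4.0.16 in R 4.3.3 was used with TMM scaling, filterByExpr (minimum count 10, minimum total 15) and robust quasi-likelihood tests, with Benjamini-Hochberg adjustment over all genes tested. The fits were 12 control libraries in 6 groups, all 22 libraries in 11 groups with both TBBPA libraries of each day as 1 group, and 20 embryoid body libraries with day and dose as terms. The SE is taken as the size of the log2 change over the root of its F value, which can understate it near the floor. The scripts were tested on simulated data. Alternatives used DESeq2 1.42.0 or its size factors, library size alone, other filters, limma 3.58.1 on log2(FPKM + 1), single doses, left-out libraries and days, a replicate block, and DMSO pairs summed.

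The members and gene lists were chosen with earlier results of these data known. Named with library values were members reaching 10 FPKM, up to 6 largest rises and falls per control step, every member called with TBBPA (up to 8 by smallest p, or the 3 of smallest p where none was called; more are given at D12), and members adjacent on a chromosome. Of each list the 4 genes of smallest p, or some of them, are named. Some items, 1 member among them, are not reported here by name, though counts over all members and lists include them.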

Additional observations from a re-analysis of the deposited data

Results flagged for a closer look

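The effect of TBBPA against DMSO differed between days 4, 9, 12, 18 and 28 in 8 of the 40 tested members, beside 10.4% of all genes, by edgeR's test of the difference over all days. The adjusted p was 1.72e-05 for Foxo4, 0.00085 for Foxa3 and 0.00116 for Foxq1, the 3 members lower with TBBPA at D12 and higher at D28. It was 0.0258 for Foxn4, 0.0262 for Foxp2, 0.0312 for Foxj2, 0.038 for Foxa2 and 0.0484 for Foxc2. Without day 28 Foxo4 alone of the 8 still passed, the others having adjusted p of 0.0674 (Foxj2), 0.075 (Foxc2), 0.0797 (Foxa3), 0.13 (Foxq1), 0.214 (Foxp2), 0.215 (Foxa2) and 0.353 (Foxn4). Without day 12 Foxn4 (0.13), Foxp2 (0.335), Foxj2 (0.218), Foxa2 (0.0743) and Foxc2 (0.29) did not pass. When the 2 DMSO libraries of each day were added up and used as 1, none of the 8 passed, with adjusted p of 0.083 (Foxo4) to 0.732 (Foxa2).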

How the results depend on the processing

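No call of a member reversed under any alternative run. Over the other settings, 124 counts of called members stayed within 1.5 times the main count and 18 did not. Apart from DESeq2 at D18, the share of all genes called in each run is not set beside the counts below, so those shifts cannot be read as particular to the family. With TBBPA at D18, where 5 members were called beside 10.5% of all genes, DESeq2 called 3 beside 8.92% of all genes. The fit with no filter called 3. The 4 libraries of D4 alone gave 1. The 10 nM library alone gave 1 at D9, 8 at D12, 2 at D18 and 2 at D28, and the 100 nM library alone gave 4 at D9. With each DMSO pair summed to 1 library the counts were 0 at D9, 3 at D12, 1 at D18, 0 at D28, 4 for both doses over the days and 0 for the difference between days. Without day 12 the difference between days was called in 3 members and the dose difference in 1, without day 18 both doses over the days gave 4, and without day 28 the difference between days gave 1. Leaving out 1 library gave 23 to 28 at D4 against ES cells, 30 to 31 at D9, 14 to 15 at D12, 16 to 17 at D18, 17 to 19 at D28, and 40 to 41 for any change. With TBBPA it gave 0 to 0 at D4, 1 to 1 at D9, 6 to 8 at D12, 1 to 7 at D18, 2 to 6 at D28, 5 to 10 over the days, 3 to 9 between days and 0 to 1 between doses. The cause of these shifts was not tested. Same-numbered libraries did not deviate together (r from -0.023 to 0.124 over 15 pairs), and with the number as a replicate block the control steps gave 26, 31, 22, 20 and 20 called members and any change 40. With scaling by library size alone the median log2 change of all genes at D9 against D4 was 0.15, beside 0.01 with TMM scaling.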
